A study of Mus musculus with 4 samples.

Results

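The genes described here are those of the proteasome and of the ubiquitin enzymes that feed it and oppose it. They were taken as every gene with a probe set whose only gene symbol begins with Psma, Psmb, Psmc, Psmd, Psme, Ube2 or Usp, which gave 90 genes on 121 probe sets, of 8251 genes with such a symbol on the array. Total RNA of mouse skeletal muscle was measured on 4 arrays whose titles name 2 J samples, J 1a and J 1c, and 2 NJ samples, NJ 1a and NJ 1d. All titles also share the codes NMJ-Ctr, Av2 and s2 and a time of 0 h. The labels spell out none of these codes and give no strain, age, treatment or dissection, so the groups are called J and NJ as labelled, and the series' title names the neuromuscular junction. No label ties the arrays to separate animals, so the p-values measure only the spread between these samples, which may be technical.

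The proteasome is the barrel-shaped protease that degrades proteins tagged with ubiquitin. Its 20S core is built of rings of alpha subunits (Psma genes), which gate the entrance, and beta subunits (Psmb genes), some of which carry the active sites. The 19S cap, made of ATPases (Psmc) and non-ATPase subunits (Psmd), binds tagged proteins and unfolds them, and other activators (Psme) can take the place of the cap. Ubiquitin is passed from an activating enzyme to a conjugating enzyme (Ube2 genes) and then, with a ligase, to the target, and the ubiquitin-specific proteases (Usp genes) remove it. In skeletal muscle this system carries much of the protein breakdown of atrophy, and neuromuscular synapses use ubiquitin ligases and proteases in their assembly and turnover.

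Promoter sequences of RefSeq (build GRCm38.p6) were set beside the array values, since the array measures only transcripts. Windows from 250 bases before to 50 bases after the annotated start were found for 70 of the 90 genes, and 8 short motifs were searched on both strands. CCGGAAG, the core motif bound by ETS factors, stood in 23 of the 70 windows (32.9%), against 9.93% of all 27025 genes with a window. By class it stood in 52.9% of 17 cap genes (9 genes) and 7.14% of 14 core genes (Psma6). It also stood in 2 of 3 activators, 5 of 16 conjugating enzymes and 4 of 18 proteases. The antioxidant response core TGACNNNGC stood in 14 of the 70 windows (20%), against 13.99% of all genes. Its letters can overlap those of the AP-1 site below. The core of the interferon-stimulated response element stood in 5 of the 70 (7.14%, all genes 3.99%) and the gamma-activated core TTCNNNGAA in 6 (8.57%, all genes 9.55%). The remaining motifs were the AP-1 site TGAGTCA (3 of 70, all genes 5.95%), the CCAAT box, spelled by its name (25 of 70, all genes 41.1%), the cAMP response element TGACGTCA (3 of 70, all genes 2.03%) and the E-box CANNTG (40 of 70, all genes 75.0%). A match describes letters only and says nothing about binding.

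4 windows are shown from 250 bases before to 20 bases after the start, lower case with the matches in capitals. Psmd12 and Psmc6 are shown as cap genes that hold both the ETS and the antioxidant response core, and Psme1 and Psmb8 as an activator and a core subunit of the immunoproteasome that hold an interferon-stimulated and a gamma-activated core. In Psmd12 the capitals mark a match to the antioxidant response core on the other strand (GCTGTGTCA, 247 bases before the start) and an ETS match on the other strand (CTTCCGG, 17 bases before). In Psmc6 they mark the same motifs as GCTAAGTCA (other strand, 227 bases before) and CCGGAAG (100 bases before). In Psme1 they mark TTTCGCTTTC (other strand, from base 10 after the start), and in Psmb8 TTCCCAGAA (97 bases before).
Psmd12, chr11:107479278-107479547, plus strand: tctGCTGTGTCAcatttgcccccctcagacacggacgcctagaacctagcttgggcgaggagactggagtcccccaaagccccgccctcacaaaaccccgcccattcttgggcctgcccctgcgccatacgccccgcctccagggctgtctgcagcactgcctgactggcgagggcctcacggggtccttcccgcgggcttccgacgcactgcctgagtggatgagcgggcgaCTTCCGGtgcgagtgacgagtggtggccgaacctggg
Psmc6, chr14:45329574-45329843, plus strand: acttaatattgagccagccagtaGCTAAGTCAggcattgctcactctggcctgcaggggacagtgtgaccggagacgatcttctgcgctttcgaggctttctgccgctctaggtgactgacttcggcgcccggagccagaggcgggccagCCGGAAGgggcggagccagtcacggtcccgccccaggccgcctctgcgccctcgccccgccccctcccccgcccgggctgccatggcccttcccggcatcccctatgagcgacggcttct
Psme1, chr14:55578244-55578513, plus strand: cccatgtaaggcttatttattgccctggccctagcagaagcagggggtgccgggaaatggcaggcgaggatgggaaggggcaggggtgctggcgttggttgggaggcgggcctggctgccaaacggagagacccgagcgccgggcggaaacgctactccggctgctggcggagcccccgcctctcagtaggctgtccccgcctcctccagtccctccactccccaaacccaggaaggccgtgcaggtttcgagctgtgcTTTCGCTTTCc
Psmb8, chr17:34197945-34198214, plus strand: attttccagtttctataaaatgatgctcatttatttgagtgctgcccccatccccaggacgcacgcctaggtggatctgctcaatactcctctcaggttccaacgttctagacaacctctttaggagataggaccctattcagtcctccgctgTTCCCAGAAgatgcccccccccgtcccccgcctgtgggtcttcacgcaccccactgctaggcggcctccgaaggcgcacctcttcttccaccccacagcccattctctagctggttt

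The arrays carried muscle RNA by their markers: all 10 fibre genes examined, Acta1, Ckm and Myh4 among them, were measured on every array, the lowest at a signal of 1301. Their summed signal was 1060320 on J 1a, 174474 on J 1c, 838853 on NJ 1a and 555830 on NJ 1d. J 1c thus stood apart at the bright end, with a highest signal of 41086 against 125534 to 238288 on the other arrays, and J 1a had the lowest correlations with the others (Pearson's r over probe sets 0.815 to 0.823, against 0.864 to 0.926 among the other 3). The values of J 1a and NJ 1a were deposited with full digits and those of J 1c and NJ 1d with 1 decimal, so number format splits each group, and it cannot be told apart from replicate label 1a against the rest. Of the leukocyte markers 11 of 14 were bright enough to test (6 higher and 5 lower in J, median 0.04), with Ptprc, Itgam and Cd53 too dim. In 3 of the 11 (27.3%, all genes 26.5%) the J and NJ arrays did not overlap. These were Fcer1g (−2.55) and Itgb2 (−1.87), lower in J, and Laptm5 (0.84), higher in J. Of the interferon response genes 10 of 13 were tested (6 higher, 4 lower, median 0.19). The part of fibre content, leukocytes or interferon genes in the differences below was not tested.

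A difference given below is the J mean minus the NJ mean of quantile-normalised log2(signal + 32), with its standard error (SE) from limma over 2 arrays per group, and the brightest probe set stands for a gene. Signals are as deposited. The log2(signal + 32) scale understates differences of dim genes, and signals of different probe sets are not compared with each other. Of the 90 genes 81 had a probe set above the filter on dim probe sets (mean over all arrays above the 25th percentile). The other 9 were Psmb9, Psmc3ip, Usp12, Usp17la, Usp17lc, Usp18, Usp21, Usp22 and Usp29. Psme2 is not named here, because its probe set carries several symbols.

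No gene of the system passed the test between J and NJ. At a limma p adjusted by Benjamini-Hochberg under 0.05, 0 of the 81 were called, against a background of 0.0% of the 6774 genes tested, and every adjusted p was 0.999. At an unadjusted p under 0.05 there was 1, Ube2d2a, against 2.01% of all genes. By sign 44 genes were higher in J and 37 lower, with a median difference of 0.10 on the log2 scale (all genes 49.0% higher, median −0.01). The members' median was 0.0048 on the deposited scale and −0.06, with 38 of 81 higher, when each array was centred on its median. In 18 of the 81 (22.2%) the J and NJ arrays did not overlap, 12 with J above and 6 with J below, against 26.5% of all genes (13.4% above and 13.1% below), so the share lay near the background. A difference over 1 was seen in 9 of 81 (11.1%), against 14.1% of all genes. In these bulk samples, fewer cells of a type and less RNA per cell cannot be told apart.

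**Figure D1:**
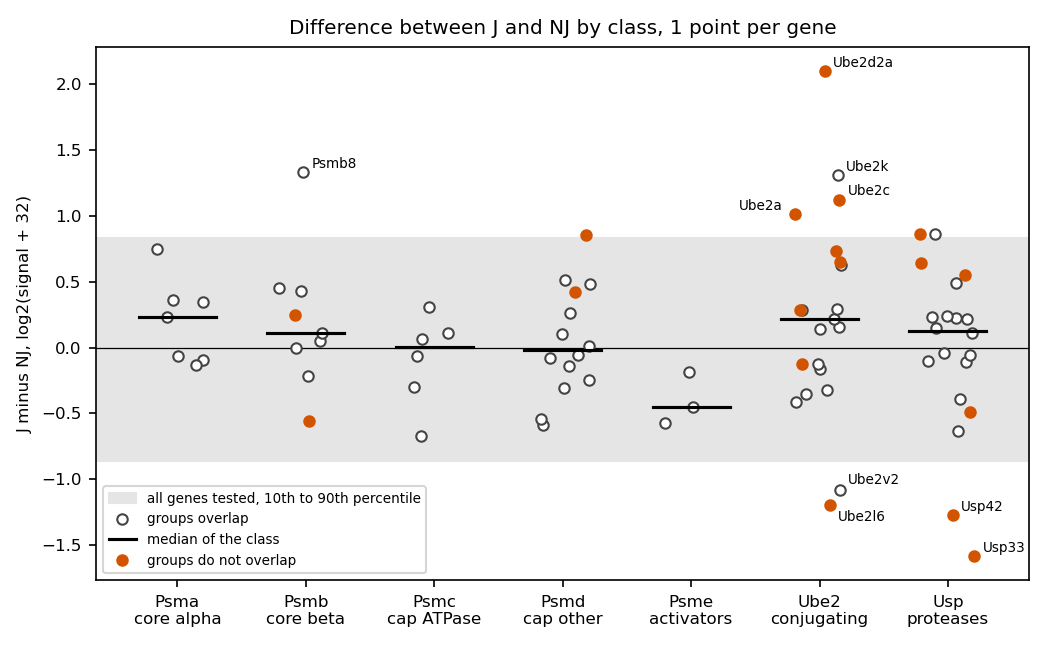
Log2(signal + 32) difference, J minus NJ, for each of the 80 tested genes of the 7 classes (1 point per gene, sideways spread for legibility only), with the class median as a bar and the 10th to 90th percentile of all tested genes (−0.86 to 0.83) as a grey band. Filled points are genes whose J and NJ arrays do not overlap. The subunits of the core and cap lie mostly inside the band, and the named genes beyond a difference of 1 are Psmb8, 6 conjugating enzymes and 2 proteases.

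The proteasome subunits and activators showed small differences with no common direction. Over 39 subunits and activators the median absolute difference was 0.26 on the log2 scale, against 0.39 over all genes. The 39 include the assembly chaperones Psmd5, Psmd9 and Psmd10. The split was 20 higher in J and 19 lower, with a median of 0.01. In 4 of the 39 (10.3%) the groups did not overlap, against 26.5% of all genes. The differences were smaller in brighter genes. Genes with a mean of at least 10 on the log2 scale were taken apart, a limit chosen after the values were seen. Their median absolute difference was 0.22 over 31 subunits and activators and 0.26 over all 2239 such genes. Under that limit it was 0.56 over 8 subunits and activators and 0.49 over 4535 genes. No test sets the subunits and activators against the other genes.

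**Figure D2:**
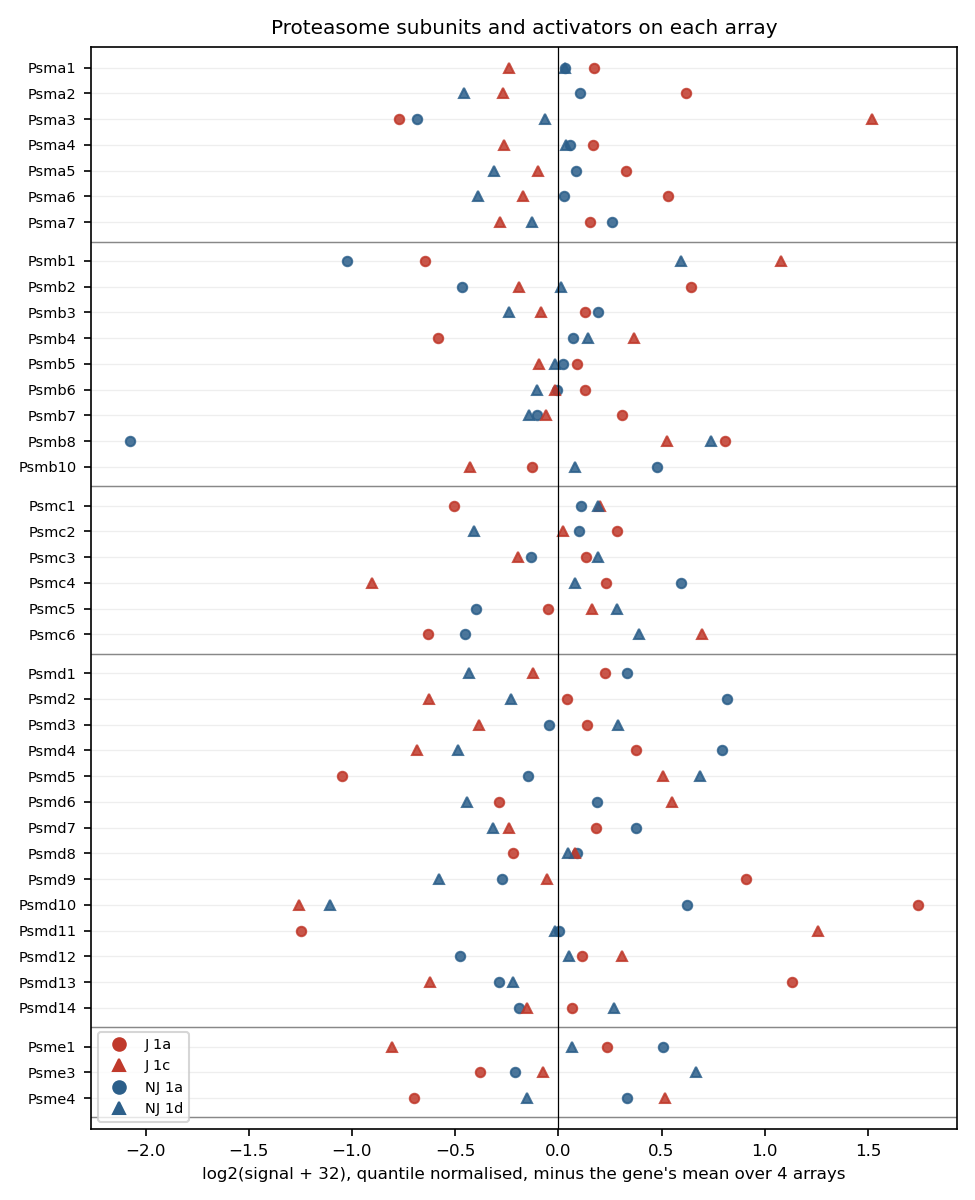
Log2(signal + 32), quantile normalised, of each tested proteasome subunit and activator on the 4 arrays, minus the gene's own mean. Red marks are J and blue marks NJ, circles the arrays with full digits (J 1a, NJ 1a) and triangles those with 1 decimal (J 1c, NJ 1d). In Psmb1, Psmc6, Psmd4 and Psmd10 the circles stand apart from the triangles while the colours mix.

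The alpha subunits of the core held no gene whose groups separated, against 26.5% of all genes. All 7 were tested, which are few genes to set beside that share. By sign 4 were higher in J and 3 lower, and the median was 0.23, which was 0.0048 on the deposited scale and turned to −0.06, with 3 of 7 higher, under median centring. Psma3 was the most different at 0.75 ± 0.68 (SE), with signals of 16114 on J 1a, 29010 on J 1c, 15880 on NJ 1a and 29242 on NJ 1d. The high arrays were 1 of each group, J 1c and NJ 1d. Its difference came with the normalisation: it was 0.0048 on the deposited scale and −0.06 under median centring, and its brightest probe set is of the f_at type, which can bind related transcripts. Psma6 had signals of 7633 and 5157 on J 1a and J 1c and of 5487 and 4621 on NJ 1a and NJ 1d, a difference of 0.36 ± 0.39. Psma2 had 6575 and 3958 in J and 4743 and 3499 in NJ (0.35 ± 0.42), and Psma5 had 2939 and 2385 in J and 2511 and 1971 in NJ (0.23 ± 0.40). In these 3 genes J 1a was the highest array and NJ 1d the lowest, and the groups overlapped. Psma1 (−0.07), Psma4 (−0.10) and Psma7 (−0.13) lay close to 0.

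Among the beta subunits, the brightest probe sets of those that carry the active sites of the standard core differed by no more than 0.25 between the groups. Psmb6, the caspase-like site, had signals of 4304 and 4334 on J 1a and J 1c and of 4048 and 4174 on NJ 1a and NJ 1d, a difference of 0.11 ± 0.35. Psmb7, the trypsin-like site, had 4411 and 3783 in J and 3431 and 3571 in NJ. Both J arrays were above both NJ arrays, by 0.25 ± 0.36, which is less than the error. Psmb5, the chymotrypsin-like site, had 2457 and 2371 in J and 2399 and 2465 in NJ on its brightest probe set (−0.0035 ± 0.37). A second Psmb5 probe set had 1801 and 1658 in J against 1100 and 1324 in NJ, 0.47 ± 0.43 with no overlap, so the probe sets of this gene disagree.

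The immunoproteasome subunits, which replace the standard active sites in immune cells and after interferon, showed no common direction. Psmb8, which takes the place of Psmb5, had signals of 636 on J 1a, 454 on J 1c, 64.2 on NJ 1a and 512 on NJ 1d. NJ 1a was the low array and NJ 1d lay between the J arrays. The difference was 1.33 ± 0.98, made of 2.88 with the 1a arrays and −0.21 with J 1c and NJ 1d, and it was −0.08 without NJ 1a. Psmb10, which takes the place of Psmb7, had 1252 and 994 in J and 1832 and 1388 in NJ. Here both J arrays were below both NJ arrays, with a difference of −0.56 ± 0.44, −0.61 between the 1a arrays and −0.51 between the others. Psmb9, which takes the place of Psmb6, was too dim to test, with signals of 146 and 103 in J and 94.1 and 103 in NJ.

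The other beta subunits are structural. Psmb2 had signals of 4416 and 2766 in J and 2116 and 3165 in NJ, a difference of 0.45 ± 0.42 with overlap. Psmb1 differed by 0.43 ± 0.65, Psmb4 by −0.22 and Psmb3 by 0.05. Psmb1 was the clearest member to follow number format, with signals of 3097 and 2431 on the 1a arrays of J and NJ against 10045 and 8801 on J 1c and NJ 1d. J was higher in 6 of the 9 tested beta subunits, and their median was 0.11, which was 0.07 on the deposited scale and 0.01, with 5 of 9 higher, under median centring.

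**Figure D3:**
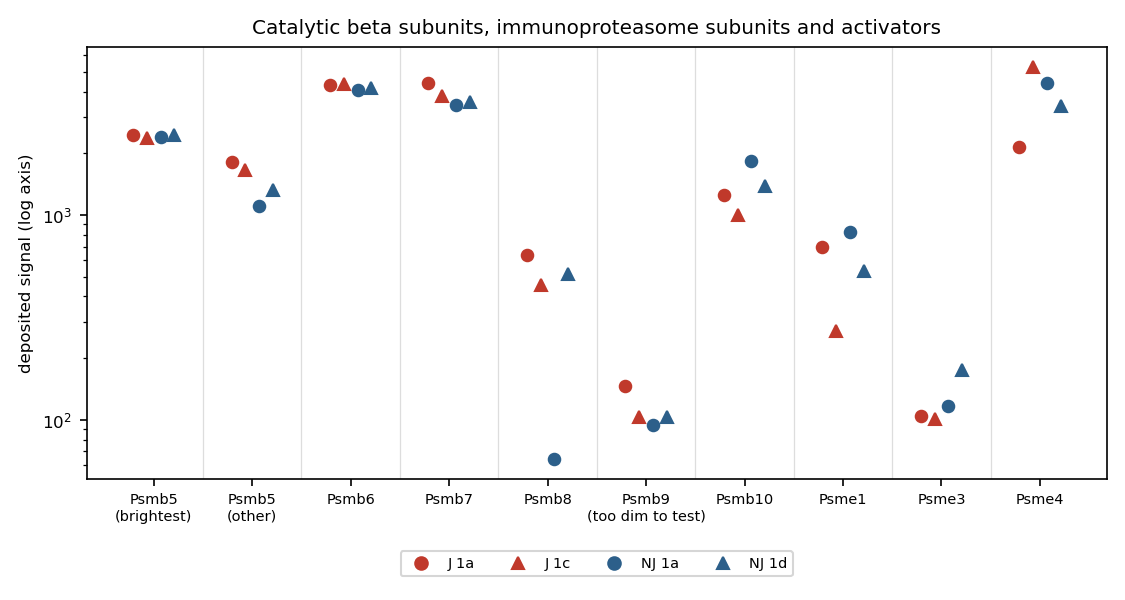
Deposited signal (log axis) on each array for the catalytic beta subunits, the immunoproteasome subunits and the activators. Points are single arrays, red for J and blue for NJ, and levels of different probe sets are not comparable. Psmb8 is low on NJ 1a alone (64.2), Psmb10 lies lower on each J array than on either NJ array, and Psmb5 gives a different picture on each of its probe sets.

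The ATPases of the cap form the ring that unfolds substrates. All 6 were tested, and none separated the groups on its brightest probe set after normalisation (all genes 26.5%). J was higher in 3 and lower in 3, and the median was 0.00040. It became −0.11 on the deposited scale and −0.17 under median centring, each with 2 of 6 higher. Psmc4 had the largest difference, −0.67 ± 0.81, on a dim probe set with signals of 222 and 58.8 in J and 284 and 137 in NJ. Psmc2 had 5442 and 5052 in J and 4869 and 3764 in NJ (0.31 ± 0.37). Its J arrays were the highest as deposited, and the groups overlapped after normalisation. Psmc1 had 1345 and 2293 in J and 1983 and 2182 in NJ (−0.30 ± 0.42), with J 1a low. Psmc5 had 1997 and 2500 in J and 1566 and 2677 in NJ (0.11 ± 0.41), and Psmc3 (−0.06) and Psmc6 (0.06) were near 0. A dimmer Psmc3 probe set had 1303 and 1511 in J and 1690 and 1523 in NJ (−0.26 ± 0.42), without overlap. Another gave −0.14, with overlap.

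The non-ATPase genes of the cap include true subunits and, under the same symbol, the assembly chaperones Psmd5, Psmd9 and Psmd10. All 14 were tested, of which 7 were higher in J, and their median was −0.02, which was −0.04 on the deposited scale (6 of 14 higher) and −0.11 under median centring (5 of 14 higher). The largest difference was in the chaperone Psmd9. It had signals of 1958 and 1018 in J and 885 and 647 in NJ, and both J arrays were above both NJ arrays, by 0.85 ± 0.52 (1.18 between the 1a arrays and 0.53 between the others, unadjusted p = 0.13). Of the other chaperones, Psmd5 had 345 and 943 in J and 611 and 1035 in NJ (−0.54 ± 0.70), and Psmd10 differed by 0.48 ± 1.10 and by 2.36 between the 1a arrays and the others.

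Of the subunits proper, Psmd12, a scaffold subunit of the lid, had signals of 3418 and 4272 in J and 2322 and 3570 in NJ. After normalisation both J arrays were above both NJ arrays (0.43 ± 0.38), while as deposited J 1a lay under NJ 1d. Psmd13 had 2049 and 582 in J and 794 and 757 in NJ (0.51 ± 0.63), with J 1a high and J 1c lowest. The ubiquitin receptor Psmd4 differed by −0.31 ± 0.52 and the lid's deubiquitinase Psmd14 by −0.08 ± 0.40. Psmd2, a base scaffold, was dim and differed by −0.59 ± 0.79. The remaining subunits were Psmd6 (0.26), Psmd1 (0.10), Psmd11 (0.01), Psmd7 (−0.06), Psmd8 (−0.14) and Psmd3 (−0.25). For Psmd11 the 0.01 was the mean of −1.25 between the 1a arrays and 1.28 between the others. Its 2 further probe sets gave −0.25 with overlap and −0.58 without overlap, normalised and as deposited.

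All 3 tested activators were lower in J by sign, on each of the 3 scalings, and none separated the groups after normalisation (all genes 26.5%). Psme1, a subunit of the interferon-induced PA28 ring, had signals of 693 and 272 in J and 823 and 530 in NJ (−0.57 ± 0.66). J 1a exceeded NJ 1d, so the groups overlapped. Psme3, the nuclear PA28 gamma, was dim at 104 and 101 in J and 116 and 174 in NJ (−0.45 ± 0.77). Psme4, the PA200 activator, had 2138 and 5293 in J and 4397 and 3405 in NJ (−0.18 ± 0.46), and it turned to 0.43 without J 1a. Psme3ip1, a partner of Psme3 that carries the prefix without being a subunit, differed by −0.05 ± 0.70.

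The conjugating enzymes held most of the large differences of the system. All 21 were tested, of which 13 were higher in J, and their median was 0.21, which was 0.13 on the deposited scale and 0.07 under median centring (12 of 21 higher). Differences over 1 were seen in 6 of the 21 (28.6%), against 14.1% of all genes, and no overlap in 8 (38.1%), against 26.5%. Of these 6 enzymes 5 had a mean under 10 on the log2 scale. Of the 13 conjugating enzymes under that level they were 38.5%, against 19.3% of all genes under it. Between J 1a and NJ 1a, 10 of the 21 differed by over 1 (47.6%, all genes 32.9%). Between J 1c and NJ 1d it was 3 (14.3%, all genes 13.9%). The sign was the same in both pairs in 11 of the 21 (52.4%), against 49.5% of all genes. None of the 21 passed the adjusted test, and no test sets the class against the other genes.

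Ube2d2a belongs to the UbcH5 enzymes, which serve many ligases. Its brightest probe set had signals of 1043 on J 1a, 600 on J 1c, 81.5 on NJ 1a and 294 on NJ 1d. Both J arrays were above both NJ arrays, by 2.10 ± 0.85, and the unadjusted p of 0.034 was the smallest of the 81 genes (rank 122 among the probe sets tested, adjusted p = 0.999). It came to 3.40 with the 1a arrays and 0.80 with the others, and it ranged from 1.18 to 2.99 when each array was left out in turn. A second Ube2d2a probe set, of the f_at type, had 340 and 388 in J and 119 and 537 in NJ (0.40 ± 0.90), with NJ 1d the highest. The related Ube2d3 differed by −0.35 ± 0.43.

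Ube2k, which extends chains linked through lysine 48, had signals of 1763 and 2040 in J and 262 and 2261 in NJ. NJ 1a was low and NJ 1d the highest of all, so the difference of 1.31 ± 0.85 was 2.80 between the 1a arrays and −0.18 between the others, and −0.24 without NJ 1a. A second probe set had 809 and 972 in J and 1024 and 690 in NJ (0.01 ± 0.52).

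Ube2n makes chains linked through lysine 63 with the catalytically inactive partners Ube2v1 and Ube2v2, and these 3 genes showed no common sign. Ube2v1 had signals of 2009 and 2565 in J and 1069 and 1920 in NJ, with both J arrays above both NJ arrays by 0.65 ± 0.44. Ube2n was likewise without overlap, at 895 and 1668 in J and 791 and 598 in NJ (0.73 ± 0.53). Ube2v2 was the other way round at 116 and 279 in J and 304 and 566 in NJ (−1.08 ± 0.86), and its second probe set gave 0.33 ± 0.84. The array values of Ube2n, Ube2v2 and Ube2l6 and the second probe sets were chosen for display after they were seen.

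Ube2c and Ube2s are the enzymes of the anaphase-promoting complex, which starts and extends chains in dividing cells. Ube2c had signals of 433 and 671 in J and 171 and 271 in NJ, both J arrays above both NJ arrays, by 1.12 ± 0.78. It came to 1.21 with the 1a arrays and 1.03 with the others. Ube2s differed by 0.28 ± 0.76, with overlap. Ube2a and Ube2b are the Rad6 enzymes. Ube2a did not overlap (1.01 ± 0.76, 1.79 and 0.24 in the same pairs of arrays). Ube2b had −0.32 ± 0.52 and turned to 0.51 without J 1a.

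Ube2l6 is the conjugating enzyme of the ubiquitin-like modifier ISG15 and had signals of 77.3 and 73.0 in J and 428 and 79.0 in NJ. Both J arrays were below both NJ arrays, by −1.19 ± 0.84, though NJ 1d exceeded J 1a by less than 2 units of signal, and it came to −2.18 with the 1a arrays and −0.21 with the others. Isg15 itself differed by 0.21 ± 0.96 and its activating enzyme Uba7 by −0.11 ± 0.78. The other enzymes named by rule were Ube2r2 (0.29 ± 0.38), a partner of cullin ligases, Ube2g1 (0.21 ± 0.46) and Ube2e1 (0.15 ± 0.55). Ube2h (0.28) was above and Ube2o (−0.13) below without overlap, while a second Ube2o probe set overlapped. It had 74.1 on J 1a, against 1419 on J 1c and 763 and 1569 in NJ, and its −1.64 ± 1.11 was −0.21 between the 1c and 1d arrays and reached 0.34 with an array left out. The remaining 5, Ube2e3, Ube2f, Ube2t, Ube2w and Ube2z, overlapped and ranged from −0.41 (Ube2t) to 0.63 (Ube2w).

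**Figure D4:**
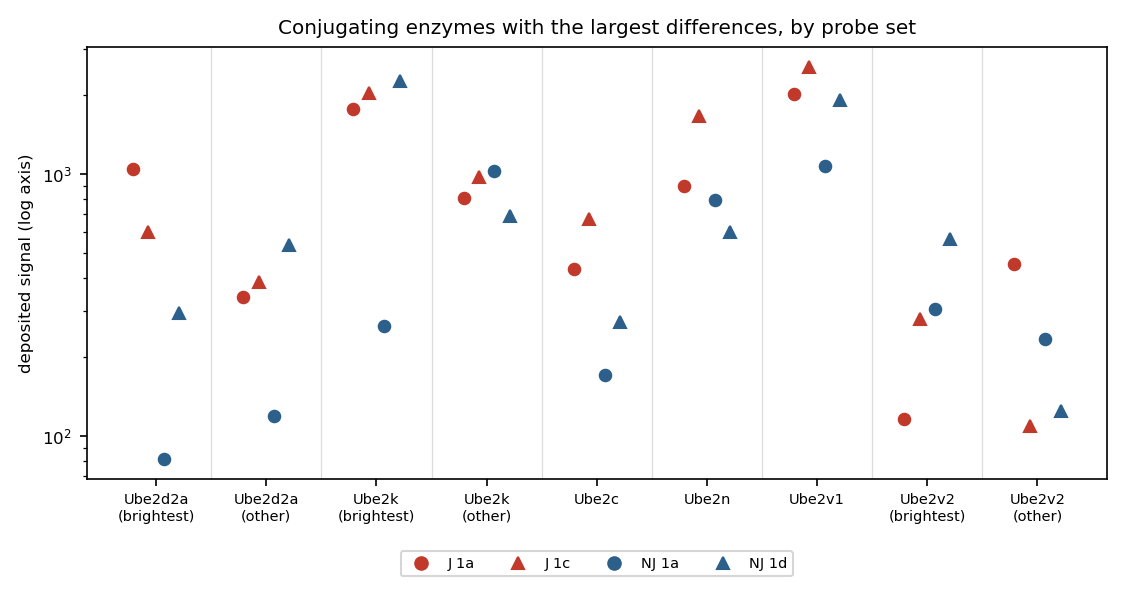
Deposited signal (log axis) on each array for the conjugating enzymes Ube2d2a, Ube2k, Ube2c, Ube2n, Ube2v1 and Ube2v2. Where a gene has a second tested probe set, that one is drawn too. Ube2l6 (−1.19) and Ube2a (1.01), which differed by more than Ube2n (0.73) and Ube2v1 (0.65), are not drawn. Points are single arrays, red for J and blue for NJ, and levels of different probe sets are not comparable. Ube2d2a and Ube2k are low on NJ 1a on their brightest probe sets, at 81.5 and 262, and Ube2k on NJ 1d is the highest of its 4 arrays. The second Ube2d2a probe set is also lowest on NJ 1a (119) but overlaps, and that of Ube2k is highest there (1024).

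The ubiquitin-specific proteases were split in direction. Of 27 genes 20 were tested, of which 11 were higher in J, and their median was 0.13, which was 0.12 on the deposited scale and 0.06 under median centring, each with 11 of 20 higher. Over all 27 genes, with no filter on dim probe sets, the median was −0.04. In 6 of the 20 (30.0%) the groups did not overlap after normalisation, 3 each way, near the 26.5% of all genes. As deposited the groups did not overlap in 4 of the 20 (20%), against 26.3% of all genes, and these 4 held on both scales.

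The largest differences were lower in J. Usp33, a protease linked to beta-adrenergic receptor recycling and cell migration, had signals of 49.8 on J 1a, 164 on J 1c, 401 on NJ 1a and 266 on NJ 1d. Both J arrays were below both NJ arrays, by −1.58 ± 0.85 (unadjusted p = 0.094), made of −2.49 between the 1a arrays and −0.67 between the others. Usp42 had 42.9 and 124 in J and 315 and 145 in NJ (−1.27 ± 0.82), again without overlap, and its difference was −2.27 and −0.27 in the same pairs. In both genes J 1a was the lowest array and NJ 1a the highest.

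On the other side, Usp10, a protease known for acting on p53, had signals of 371 and 599 in J and 215 and 241 in NJ, both J arrays above both NJ arrays, by 0.86 ± 0.77. Usp3, a histone deubiquitinase, had 4322 and 4436 in J and 2217 and 4309 in NJ (0.55 ± 0.40). It was separated mainly by a low NJ 1a, and 2 further Usp3 probe sets gave −0.38 and −0.39. Usp48 differed by 0.64 ± 0.60. Usp39, a splicing factor that lacks protease activity, differed by −0.49 ± 0.62, while its second probe set gave 1.12 ± 0.79. Usp1, which acts in DNA repair, differed by 0.86 ± 0.99 and Usp5, which recycles free ubiquitin chains, by −0.63 ± 0.75, both with overlap.

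The proteases with known places in the proteasome or in muscle differed by less than their errors, with overlap. Usp14, bound to the 19S cap, differed by 0.23 ± 0.57. Usp19, which has a role in muscle atrophy, had signals of 1913 and 1894 in J and 2427 and 1018 in NJ, so the NJ arrays were the highest and the lowest. It differed by 0.22 ± 0.49 (−0.35 in the 1a pair, 0.78 in the other), and its second probe set by 0.77 ± 0.90, also with overlap. Usp25, of which muscle makes a long form, had 218 and 799 in J and 233 and 310 in NJ, with J 1c high, and differed by 0.49 ± 0.87. Usp2 differed by 0.15 ± 0.36, Usp7 by 0.11 ± 0.45, Usp4 by −0.04 ± 0.39 and Usp9x by −0.06 ± 0.40. Second, dimmer probe sets of Usp7 (0.60 ± 0.73) and Usp9x (0.70 ± 0.72) had both J arrays above both NJ arrays, normalised and as deposited. The probe sets of each gene thus differed in overlap, and those of Usp9x also in sign. The remaining 5 tested, Usp8, Usp15, Usp24, Usp34 and Usp38, overlapped and ranged from −0.39 (Usp15) to 0.24 (Usp38). Usp18, which removes ISG15, was too dim to test at 101 and 61.4 in J and 116 and 106 in NJ.

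The split of the arrays by number format gave larger differences than the split by group in most of the members. The difference between the 1a arrays and the other arrays exceeded that between J and NJ in 56 of 81 genes (69.1%), against 59.6% of all genes, and in 29 of 39 proteasome subunits and activators (74.4%). At an unadjusted p under 0.05, 13 of 81 (16.0%) differed by number format, against 14.0% of all genes. At an adjusted p under 0.05 there were 2, against 1.58% of all genes: Psmb1 (−1.67, adjusted p = 0.0014) and Psma3 (−1.45, adjusted p = 0.034), both lower on the 1a arrays. The Psma3 value also came with the normalisation in part. Its deposited signals of 29010 on J 1c and 29242 on NJ 1d became 16.18 and 14.59 on the normalised log2 scale. Only 40 of 81 genes (49.4%) had J minus NJ of the same sign within both number formats, against 49.5% of all genes. Differences over 1 were seen in 23 of 81 genes with full digits (1a arrays) and in 7 with 1 decimal (J 1c and NJ 1d), against 32.9% and 13.9% of all genes (28.4% and 8.64% of the members). With number format as a term in the fit, 0 of the 81 passed an adjusted p of 0.05, against 0.118% of all genes, and Ube2d2a and Ube2k had an unadjusted p under 0.05 (0.010 each, adjusted p = 0.61, against 5.98% of all genes).

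**Figure D5:**
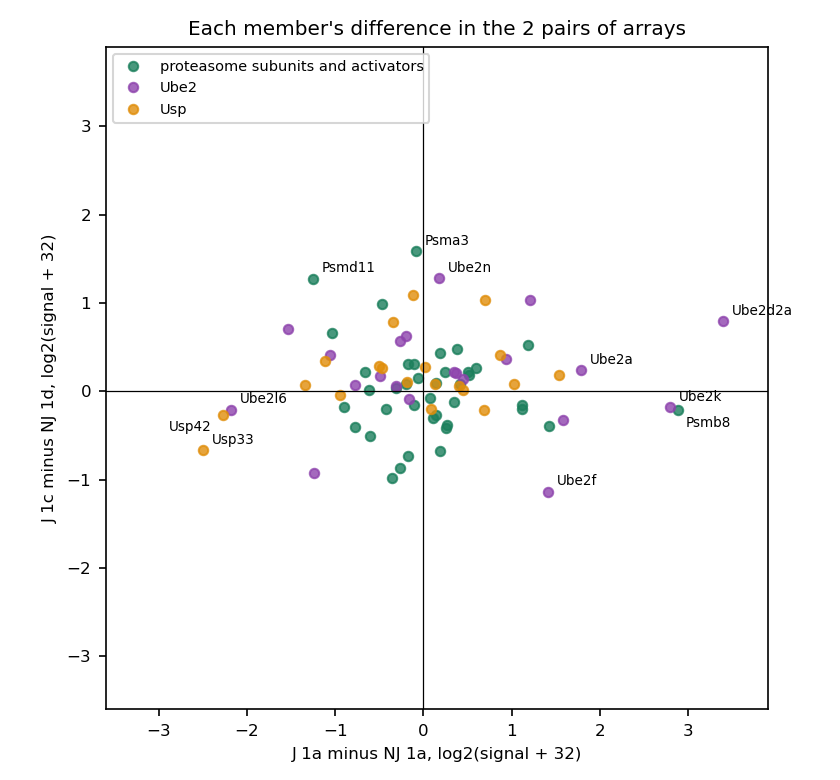
Log2(signal + 32) difference, J minus NJ, within the arrays with full digits (J 1a minus NJ 1a, horizontal axis) and within those with 1 decimal (J 1c minus NJ 1d, vertical axis), 1 point per tested gene, coloured by class. The points spread further along the horizontal axis, and Psmb8 and Ube2k lie far to the right (2.88 and 2.80) close to 0 on the vertical axis.

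Probe sets of the same gene were a further source of spread. Of 21 members with several tested probe sets, 11 had probe sets that differed in sign. Of the 106 tested member probe sets 82 were of the plain type, and 8 genes are represented by an f_at or s_at probe set, among them Psma3, Psmb4, Psmb5, Psmb7, Psmc3 and Psmd12. A further 6 probe sets were of the r_at type, also not plain, among them the brightest of Psmd9, Ube2c, Ube2w and Usp25.

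The rest of the pathway was described from 4 lists. Of the ubiquitin-like modifiers and activating enzymes 7 of 17 were measured, of which J was higher in 4, and their median was 0.21. Sumo3 had the smallest p of these, at 0.9985 ± 0.40 (unadjusted p = 0.033, adjusted 0.999), with both J arrays above both NJ arrays. Uba3 (0.79), which activates NEDD8, and Sae1 (0.71), which activates SUMO, followed, and Nedd8 differed by −0.24. Of the ligases 26 of 42 were measured and 25 tested, of which J was lower in 18, and their median was −0.39. In 8 of the 25 (32%) the groups did not overlap after normalisation, 7 of them with J below, against 26.5% of all genes. As deposited it was 5 (20%, all genes 26.3%), and 4 held on both scales. In the 1a pair the median was −0.62 and in the other −0.04, with the same sign in both pairs in 13 of 25. Those with the smallest p were Cul3 (−0.82 ± 0.44), a cullin scaffold, the chaperone-linked Stub1 (−0.64 ± 0.41), and the substrate receptors Vhl (−1.41 ± 0.90) and Btrc (−0.94 ± 0.74). None passed the adjusted test. The muscle atrophy ligases Fbxo32 and Trim63 had no probe set named here.

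Of the other deubiquitinases 6 of 14 were measured and 5 tested. By sign all 5 were higher in J (all genes 49.0% higher), with a median of 0.71. The sign was the same in both pairs of arrays in 3 of the 5. Zranb1 and Otud5 were lower in the 1a pair (−0.24 and −0.27). With an array left out, Zranb1, Otud5 and Uchl5 fell to −0.23, −0.29 and −0.04. Otub1, which binds and blocks conjugating enzymes, differed by 1.47 ± 0.65 (unadjusted p = 0.049, adjusted 0.999) without overlap, Uchl1 by 1.60 ± 0.94, Uchl5, a cap-bound protease, by 0.71 ± 0.77 and Zranb1 by 0.20 ± 0.44. Uchl1 is also a neuronal marker, and of the other neuronal genes Snap25 differed by 1.70 ± 1.07 and Nefl by −0.67 ± 0.87, with Nefm and Syt1 too dim to test. The part of nerve RNA in it was not tested. Of the assembly factors, shuttles and regulators 12 of 20 were measured, of which J was lower in 8, and their median was −0.18. Nfe2l1, the factor that drives proteasome genes when the proteasome is inhibited, was below on both J arrays (−0.59 ± 0.37), the shuttle Rad23b differed by 0.88 ± 0.57, Sem1, a small cap subunit, by −0.21 and Ufd1, a cofactor of Vcp, by −0.52.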

How the data were processed

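Transcripts were measured in 4 samples on single-channel arrays with 12488 probe sets each. The deposited values are linear intensities, 1 signal for each probe set. Which software made them is not given in the sources used here. Their mean after trimming 2% at each end was 800.5 to 800.6 on every array, so the authors' signals stand scaled to a common level. The number of arrays limits the precision.

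Names come from the platform annotation: of 12422 that are not controls, 10833 had 1 symbol, 396 several and 1193 none. All 90 member symbols had an entry in RefSeq. Signals were taken as log2(signal + 32) and quantile normalised, because array medians differed. The 9317 probe sets whose mean lay above the 25th percentile were tested with limma 3.58.1 in R 4.3.3 (lmFit and trended eBayes, 2 residual degrees of freedom), two-sided, with Benjamini-Hochberg adjustment over all of them and a threshold of 0.05. The brightest probe set stood for each of 6774 genes. Classes and lists were described by counts and medians only.

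The members and lists were chosen with earlier results of these data known. Named were every proteasome gene, the 8 Ube2 and 8 Usp genes with the smallest p, the 3 brightest of each and a list of known enzymes, with array values for the 4 smallest p per class and the catalytic, immunoproteasome and activator subunits. Names outside this rule are said to be so or complete a class. Alternatives were the deposited scale, median centring, pseudocounts of 1 and 100, no filter or one at the median, no intensity trend, a term for number format, the mean of a gene's probe sets, and leaving out each array. Scripts were tested on simulated data. Figures were drawn with matplotlib 3.10.9.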

Additional observations from a re-analysis of the deposited data

How the results depend on the processing

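No pairing by replicate label was possible, because the groups share only the label 1a. The number format term puts 1 array of each group in each level, so it pairs them by format and not by replicate. No member passed the adjusted test under any alternative. Over all probe sets the count past it was 0, 8 with the number format term, and 0 to 4 when each array was left out (4 without J 1a). The class medians moved by more than the SD between arrays of a group (pooled over the groups, of the class's median deviation from each gene's mean) in the following cases. Under median centring they were −0.056 for Psma, 0.0097 for Psmb, −0.17 for Psmc and −0.056 for all members. On the deposited scale they were −0.11 for Psmc and 0.0048 for all members. With no filter they were −0.042 for Usp and 0.055 for all members, and with the mean of a gene's probe sets 0.23 for Psmb. Leaving out each array gave −0.10 to 0.40 for Psma, −0.024 to 0.16 for Psmb, −0.28 to 0.12 for Psmc, −0.10 to 0.29 for Psmd, 0.089 to 0.46 for Ube2, −0.12 to 0.14 for Usp and 0.014 to 0.11 for all members. The lowest of these came without J 1a for Psma, without NJ 1a for Psmb, Psmc and Ube2, and without NJ 1d for Psmd, Usp and all members. The highest came without NJ 1a for Psma and Psmd, without J 1a for Psmc, Ube2 and Usp, and without J 1c for Psmb and all members. Among the members named by rule, on their brightest probe sets, a difference larger than its error changed sign for Psma3 (−0.056 under median centring, −0.43 to 1.66 with an array left out), Psmb8 (−0.076 to 2.70, the lowest without NJ 1a) and Ube2k (−0.24 to 2.78, the lowest without NJ 1a). With an array left out, the same held for the second Ube2o probe set (0.34). In the pathway lists it held for Uba3 (−0.12) and for the ligase Nedd4l (0.47, from −0.75 ± 0.73). The mean of a gene's probe sets was not counted among the alternatives for the next counts, which are on brightest probe sets. Of 68 named members 42 changed sign under some counted alternative, 6 of them without an array left out. The remaining 26 kept their sign under all of those counted. The cause was not tested. Dim signals limit 8 of the 9 members that differed by over 1, and 9 members were too dim to test.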
